A study of Homo sapiens with 2 samples.

Results

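The insulin receptor, AKT and FOXO axis was described through 10 genes: the receptors INSR and IGF1R, the receptor adaptors IRS1 and IRS2, the PI3-kinase subunits PIK3CA and PIK3R1, the kinases AKT1 and AKT2, and the transcription factors FOXO1 and FOXO3. They were chosen by name, as receptor, adaptor, kinase and FOXO genes whose IRS and FOXO proteins bind 14-3-3 proteins, and were taken from a table of 60774 Ensembl gene identifiers by their GENCODE 29 symbols. All 10 were found, and all 10 passed the filter on low values, which asked for 1 FPKM or more on average. FPKM is the number of fragments of a gene divided by its length in kilobases and by the library's fragments in units of 1e6. The cells were MDA-MB-231, an established human breast cancer line of the triple-negative type, kept in DMEM/F12 medium with fetal bovine serum. RNA-seq was done on 1 library of cells with a vector control and on 1 library of cells labelled as over-expressing YWHAB, the gene for 14-3-3 beta, in a series whose title concerns migration and invasion. The vector, its promoter, and whether the cells were a clone or a pool were not given in the sources used here. The treatment fields of both samples also name insulin, dexamethasone and isobutylmethylxanthine in a text on fat cell formation, followed by a text on retinas. If that text applied, insulin, the ligand of this axis, would have been present in both groups alike.

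Insulin and the insulin-like growth factors bind receptor kinases that phosphorylate IRS adaptors, and these recruit PI3-kinase to the membrane. The lipid that PI3-kinase makes brings AKT to its activating kinases, and active AKT phosphorylates FOXO factors. Phosphorylated FOXO proteins are bound by 14-3-3 proteins, leave the nucleus and stop driving their target genes, while IRS proteins are bound by 14-3-3 proteins too. These steps act on proteins, and the values here are RNA levels.

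IRS1 differed most among the 10 genes, at 14.8 FPKM (vector) against 29.8 FPKM (YWHAB). Both receptor genes and both AKT genes were also higher in the YWHAB library beyond counting error, and FOXO3 was lower. IRS2, PIK3CA, PIK3R1 and FOXO1 were not distinguishable between the libraries at this depth. A difference of at least 1 in log2(FPKM + 1), YWHAB minus vector, was called 2-fold. By that rule 0 of the 10 genes were higher and 0 were lower, where 0.686% of the 13420 genes compared were higher and 1.97% lower. For 5 of the 10 genes the 95% counting interval of the ratio lay above equal levels, and for 1 below. Over all genes compared these shares were 27.8% above and 21.8% below. The lowest number of fragments used for any of the 10 genes was 345 over both libraries, the smallest possible for FOXO1. For INSR the number used reached it, but the smallest possible number would not. Among the 8722 genes with at least 345 fragments, the shares were 36.6% above and 25.0% below, so such intervals were common. The median difference of the 10 genes was 0.14, against 0.03 over all genes compared. There was 1 library per group, so no value has a replicate check and no test was run, and a difference of 1 library from another is not shown to belong to YWHAB. In bulk RNA, fewer cells with a transcript and less of it per cell cannot be told apart.

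**Figure D1:**
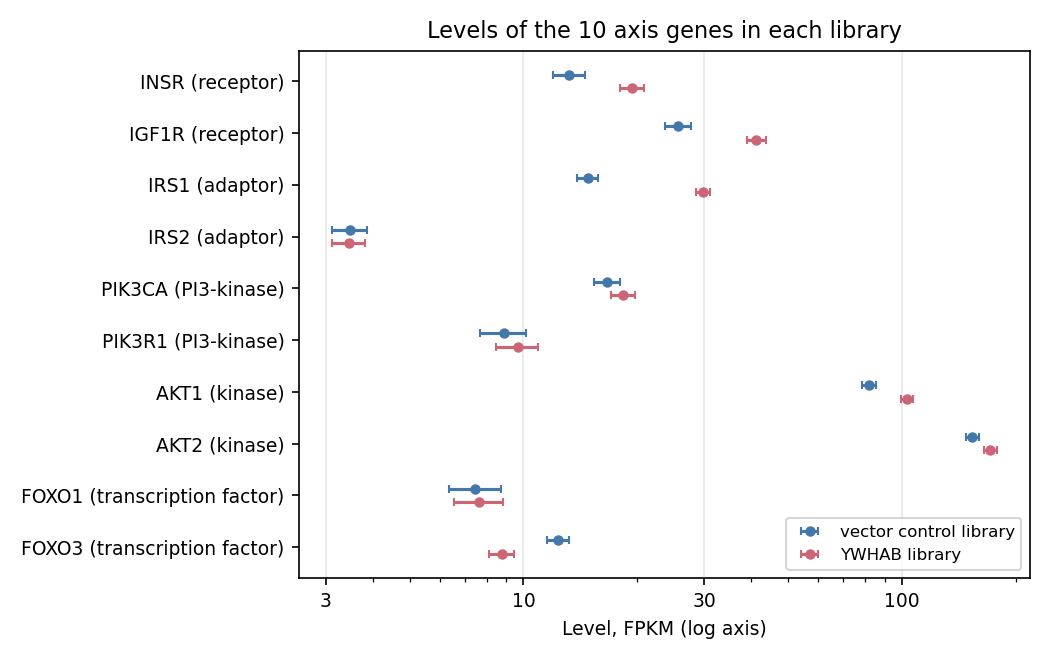
Level of each gene in FPKM (log axis) in the vector control library (blue) and the YWHAB library (red), 1 library each, with bars for the 95% counting interval. IRS1 was at 14.8 and 29.8 FPKM, while the intervals of both libraries overlapped for IRS2, PIK3CA, PIK3R1 and FOXO1.

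Promoter sequences are shown for the gene that differed most and for the members that hold a FOXO or insulin response motif near their start, because FOXO factors are the transcriptional output of this axis. RefSeq (GRCh38.p14) gave 18 promoters for the 10 genes, each from 250 bases before to 50 after a transcript start, with more than 1 for PIK3R1, AKT1, AKT2 and FOXO3. The FOXO core GTAAACA and the insulin response core CAAAACA were searched on both strands. They share their closing letters and differ in the letters before these, so no match to one is also a match to the other. The FOXO core was in 3.42% and the insulin response core in 4.92% of all 35116 promoters. Of the 18 promoters 1 held the first, that of PIK3CA at chr3:179148107-179148406 on the plus strand, where the match on the opposite strand starts 149 bases before the transcript start. Another 1 held the second, that of IRS2 at chr13:109786534-109786833 on the minus strand, with the match on the opposite strand starting 40 bases before the start. The IRS1 promoter, at chr2:226799771-226800070 on the minus strand, held neither in this window. Capitals mark the motif matches.
PIK3CA: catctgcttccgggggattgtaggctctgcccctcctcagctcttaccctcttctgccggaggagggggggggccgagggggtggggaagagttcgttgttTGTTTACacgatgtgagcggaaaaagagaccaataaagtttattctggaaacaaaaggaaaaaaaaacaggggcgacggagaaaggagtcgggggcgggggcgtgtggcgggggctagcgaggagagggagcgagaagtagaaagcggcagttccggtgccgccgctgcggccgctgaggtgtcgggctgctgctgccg
IRS2: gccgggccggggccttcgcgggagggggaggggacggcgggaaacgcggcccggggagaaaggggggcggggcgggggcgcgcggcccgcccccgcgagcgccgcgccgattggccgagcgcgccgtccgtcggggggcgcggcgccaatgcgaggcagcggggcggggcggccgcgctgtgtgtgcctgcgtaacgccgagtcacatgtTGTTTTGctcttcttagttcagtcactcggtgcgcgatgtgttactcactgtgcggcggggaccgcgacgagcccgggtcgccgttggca
IRS1: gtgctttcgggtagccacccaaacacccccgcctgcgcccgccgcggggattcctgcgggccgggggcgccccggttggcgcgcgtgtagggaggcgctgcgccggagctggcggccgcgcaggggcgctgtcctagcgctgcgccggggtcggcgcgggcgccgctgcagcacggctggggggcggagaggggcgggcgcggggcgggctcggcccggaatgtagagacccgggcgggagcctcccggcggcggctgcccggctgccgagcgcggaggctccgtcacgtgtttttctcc
G and C made up 79.3% of the IRS1 window and 75.7% of the IRS2 window but 60.7% of that of PIK3CA, against a median of 58.7% over all promoters. The members with a match, PIK3CA and IRS2, were both among the 4 not distinguishable between the libraries. With 1 promoter for each motif, any link of motif to level was not tested. A match of letters is a description of the window and not a bound site.

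The libraries held 12375999 fragments (vector) and 13810668 (YWHAB), and YWHAB itself was at 239 and 336 FPKM, a ratio of 1.41 (counting interval 1.36 to 1.45). That is in the labelled direction and short of the 2-fold rule. A difference at least as high was held by 8.01% of all genes compared. The fragments behind the interval are fixed only up to a common multiple, and the one nearest to the mean annotated length was taken. Markers of the line's mesenchymal state were present in both libraries (6 of 6 compared, vimentin at 736 and 861 FPKM, MSN at 1615 and 1617 FPKM). Counting intervals lay above equal levels for 4 of the 6 and below for 1, against 27.8% and 21.8% of all genes compared. The 1 below was SPARC at 9.56 and 5.02 FPKM (ratio 0.525, counting interval 0.384 to 0.715). Of the receptors that define the triple-negative type, PGR was at 1 and 0 fragments and ESR1 at 7 and 1, while ERBB2 was at 32.8 and 49.97 FPKM (ratio 1.52, counting interval 1.399 to 1.655). Of 10 adipocyte markers 2 were compared, PPARG (19.8 and 15.5 FPKM) and LPL (9.32 and 5.38 FPKM). ADIPOQ and LEP were listed at 0 in both libraries, and so were the retina genes SAG, CRX and RCVRN and the leukocyte gene CD3E. The summed level of the adipocyte markers was 30.1 FPKM (vector) and 21.7 (YWHAB), with retina markers at 11.8 and 7.81 (1 of 10 compared, RBPMS) and leukocyte markers at 3.29 and 2.22 (1 of 5 compared, CD14). Luminal markers summed to 936 and 1130 FPKM, mostly the keratins KRT8 and KRT18, with 4 of 8 compared. The part of any of these in the results was not tested.

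INSR encodes the insulin receptor and IGF1R the receptor of insulin-like growth factor 1, and both genes were higher in the YWHAB library. INSR (ENSG00000171105, chromosome 19, 7112255 to 7294034, minus strand of GRCh38) was at 13.2 FPKM with the vector and 19.4 with YWHAB. From 440 and 720 fragments, that is a ratio of 1.47 (counting interval 1.30 to 1.65). Those fragments are fixed only up to a common multiple, and the one nearest to the mean annotated length was taken. A smaller multiple would widen the interval. IGF1R (ENSG00000140443, chromosome 15, 98648539 to 98964530, plus strand) was at 25.6 and 41.2 FPKM, a ratio of 1.61 (counting interval 1.46 to 1.77). For IGF1R the values fix its fragments only up to a common multiple, and the smallest, 644 and 1156, was used because it gives the widest interval. The differences of 0.52 for INSR and 0.67 for IGF1R were matched or passed by 6.73% and 3.29% of all genes compared. The level of IGF1R was 1.94 times that of INSR in the vector library and 2.13 times in the YWHAB library.

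IRS1 and IRS2, which encode the main docking proteins between these receptors and PI3-kinase, did not show the same pattern in these libraries. IRS1 (ENSG00000169047, chromosome 2, 226731317 to 226799759, minus strand) was at 14.8 FPKM (counting interval 13.8 to 15.8) with the vector and at 29.8 FPKM (28.5 to 31.1) with YWHAB. From 934 and 2102 fragments, that is a ratio of 2.02 (counting interval 1.87 to 2.18), and the intervals of the levels were far apart. The fragments of IRS1, like those of INSR, rest on the multiple nearest to the mean annotated length. A smaller one would widen these intervals. Its difference of 0.97 was just short of the 2-fold rule, since 1 FPKM is added before the logarithm. With a pseudocount of 0.1 it was 1.01 and passed, as it did with the libraries rescaled to equal totals (1.00). After a correction for transcript length and GC content it was 0.81. Of all 13420 genes compared, 108 (0.805%) had a difference at least as high. IRS2 (ENSG00000185950, chromosome 13, 109752698 to 109786568, minus strand) was at 3.48 and 3.46 FPKM. From 351 and 390 fragments its ratio was 0.996 (counting interval 0.860 to 1.15), so a ratio of the size seen for IRS1 lay outside its interval. The sign of its difference of -0.0048 turned with equal totals (0.03), and it was -0.21 after length and GC correction. The level of IRS1 was 4.25 times that of IRS2 in the vector library and 8.61 times in the YWHAB library.

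PIK3CA encodes the catalytic p110 alpha subunit of PI3-kinase and PIK3R1 the regulatory p85 alpha subunit that docks on phosphorylated IRS proteins. PIK3CA (ENSG00000121879, chromosome 3, 179148114 to 179240093, plus strand) was at 16.7 FPKM (vector) and 18.3 FPKM (YWHAB), a ratio of 1.10 (counting interval 0.987 to 1.22). PIK3R1 (ENSG00000145675, chromosome 5, 68215720 to 68301821, plus strand) was at 8.87 and 9.64 FPKM, a ratio of 1.09 (0.899 to 1.32). Neither could be told from equal levels, with 619 and 759 fragments for PIK3CA and 201 and 244 for PIK3R1. Their ratio to each other stayed close, with PIK3CA at 1.88 times PIK3R1 in the vector library and 1.90 times in the YWHAB library. The value of PIK3CA is uncertain, because 35.8% of its exon bases overlap KCNMB3 on the opposite strand (0.225 and 0.336 FPKM) and whether counting used strand is not given. Also, 15.4% of its transcript 50-mers occur in genes elsewhere, chiefly the pseudogene KCNMB3P1 on chromosome 22, which was listed at 0 in both libraries.

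AKT1 and AKT2 encode kinases that pass the PI3-kinase signal on to FOXO, and they were the most abundant transcripts of the axis. AKT1 (ENSG00000142208, chromosome 14, 104769349 to 104795751, minus strand) was at 81.7 FPKM (counting interval 78.3 to 85.3) with the vector and 103 FPKM (99.6 to 107) with YWHAB. From 2161 and 3046 fragments, that is a ratio of 1.26 (1.19 to 1.34). AKT2 (ENSG00000105221, chromosome 19, 40230317 to 40285536, minus strand) was at 154 and 171 FPKM, a ratio of 1.12 (1.06 to 1.18) from 2271 and 2829 fragments. Both ratios lay above equal levels, but they were small: differences at least as high as the 0.33 of AKT1 were held by 17.4% of all genes compared, and for the 0.16 of AKT2 by 34.1%.

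FOXO1 and FOXO3 encode the forkhead factors that AKT holds in check, and FOXO3 was the 1 gene of the axis that was lower in the YWHAB library beyond counting error. FOXO3 (ENSG00000118689, chromosome 6, 108559835 to 108684774, plus strand) was at 12.4 FPKM (counting interval 11.6 to 13.2) with the vector and 8.76 FPKM (8.12 to 9.44) with YWHAB. The ratio was 0.709 (0.641 to 0.784) from 875 and 692 fragments, and 10.7% of all genes compared were as low or lower. Its difference of -0.45 ranged from -0.60 to -0.42 over the alternative settings. FOXO3 has a close copy, the pseudogene FOXO3B on chromosome 17. Of the transcript 50-mers of FOXO3, 27.8% occur in genes elsewhere. FOXO3B holds 15.7% of them all, and AC026271.3 on chromosome 17, which had no value here, holds 10.9%. FOXO3B was at 2.22 and 1.68 FPKM, a ratio of 0.756 (0.492 to 1.16), which lies on the same side as FOXO3 with an interval that includes equal levels. How fragments that match both were assigned is not given. FOXO1 (ENSG00000150907, chromosome 13, 40469953 to 40666597, minus strand) was at 7.45 and 7.63 FPKM, a ratio of 1.02 (0.824 to 1.27). Its fragments, like those of IGF1R, are fixed only up to a common multiple, and the smallest, 161 and 184, gives the interval printed, which is the widest possible. Its difference of 0.03 was negative (-0.0050) when the libraries were centred on their median ratio and -0.05 when corrected for length and GC content. FOXO3 was at 1.66 times the level of FOXO1 in the vector library and 1.15 times in the YWHAB library.

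**Figure D2:**
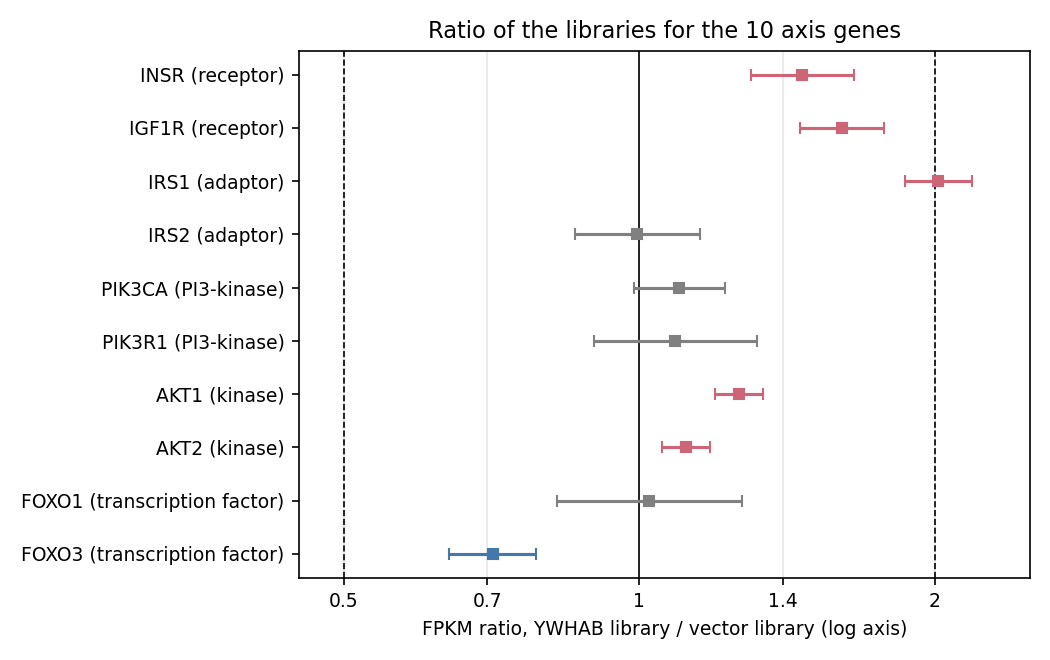
Ratio of FPKM, YWHAB library over vector library (log axis), with the 95% counting interval of each gene. Dashed lines stand at ratios of 0.5 and 2. Red marks intervals above equal levels (5 genes), blue an interval below (FOXO3) and grey intervals that include equal levels (4 genes).

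In the order of levels, AKT2, AKT1 and IGF1R led in both libraries and IRS2 was lowest in both. In the vector library PIK3CA, IRS1, INSR and FOXO3 followed IGF1R at 16.7, 14.8, 13.2 and 12.4 FPKM, and each overlapped its neighbour in its counting interval. PIK3R1 and FOXO1 came next and overlapped too. In the YWHAB library IRS1 stood alone below IGF1R, INSR and PIK3CA overlapped at 19.4 and 18.3 FPKM, and PIK3R1, FOXO3 and FOXO1 followed, each overlapping its neighbour. Levels between genes depend on the length by which fragments were divided. For IRS2, PIK3CA, PIK3R1, AKT1, AKT2 and FOXO3 it lay close to the mean of annotated transcripts. For INSR and IRS1 it is known only up to a multiple, and the multiple nearest to that mean was taken. For IGF1R and FOXO1 only the smallest possible length is known. The length used is 1195 nt for AKT2, whose longest coding transcript has 5300 nt. Divided by the longest coding transcript, AKT2 was at 0.776 times AKT1 in the vector library and 0.686 times in the YWHAB library. The deposited FPKM gave 1.88 and 1.66, so the order of the AKT genes depends on that choice. The other pairs moved too, given here with the vector library first. FOXO3 was then at 4.25 and 2.94 times FOXO1, and IGF1R at 1.07 and 1.18 times INSR. IRS1 was at 2.23 and 4.52 times IRS2, and PIK3CA at 2.37 and 2.40 times PIK3R1. On the same scale, chosen after the values were seen, FOXO3 (9.63 in the vector library) and IRS1 (7.78) came next after the AKT genes, and PIK3R1 (2.32) and FOXO1 (2.27) rather than IRS2 (3.49) were lowest. For INSR, IRS1, IGF1R and FOXO1 that scale also depends on the multiple taken for their fragments. The ratio between the libraries depends on none of this.

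Transcript length moved with the differences over the whole table, and the genes of the axis are long. Among protein-coding genes sorted into 5 equal groups by mean transcript length, the median difference went from -0.06 in the shortest group to 0.12 in the longest. Of the 10 genes, 7 were in the longest group, 2 in the next (PIK3R1 and AKT1) and 1 in a shorter one (AKT2). In the longest group 42.7% of genes had a counting interval above equal levels and 16.7% below. Corrected for length and GC content, the 10 genes had a median of 0.12, and INSR (0.40), IGF1R (0.53), IRS1 (0.81), AKT1 (0.20) and AKT2 (0.12) stayed above 0, while FOXO3 was at -0.60. The correction uses annotated lengths, so its fit to the transcripts expressed here was not tested.

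**Figure D3:**
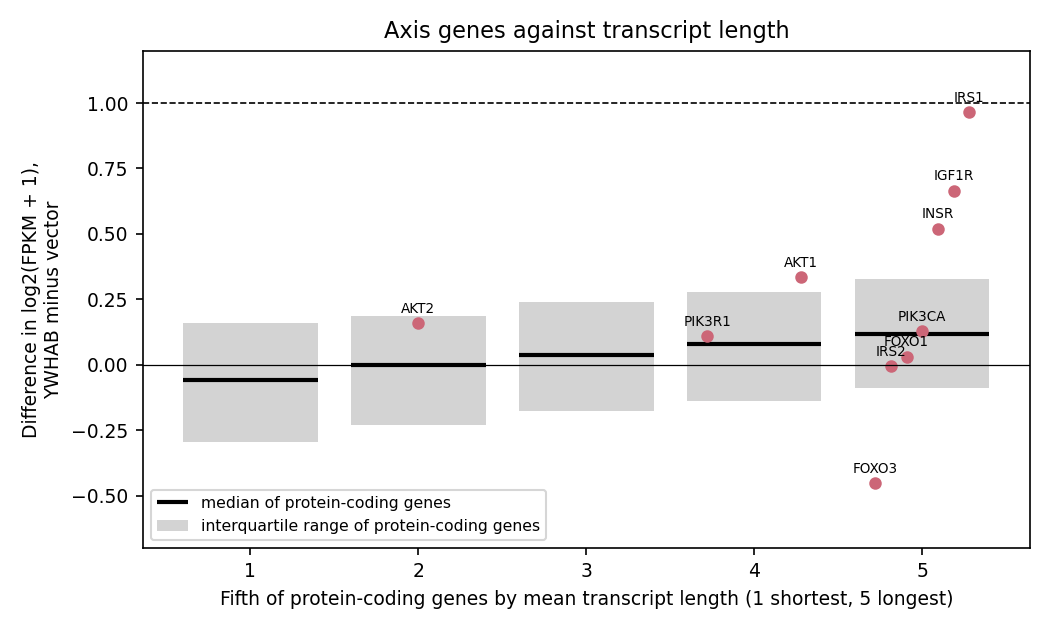
Difference in log2(FPKM + 1), YWHAB minus vector, of each of the 10 genes (red), placed by mean transcript length in 1 of 5 equal groups of protein-coding genes. Grey bars are the interquartile range and black lines the median of each group, which went from -0.06 to 0.12, and the dashed line is the 2-fold rule. IRS1, IGF1R and INSR lie above the bar of the longest group and FOXO3 below it.

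**Figure D4:**
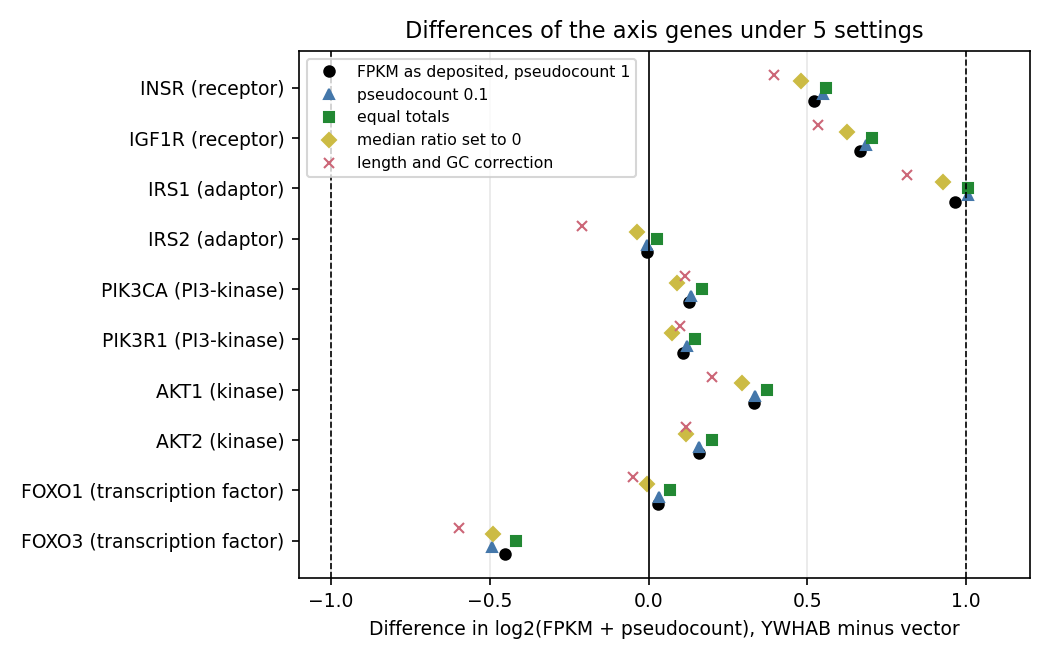
Difference of each of the 10 genes, YWHAB minus vector, in log2(FPKM + pseudocount) under 5 settings, with dashed lines at the 2-fold rule. IRS1 lies at 0.97 as deposited, at 1.01 with a pseudocount of 0.1 and at 0.81 after length and GC correction, and FOXO3 stays below 0 in each setting.

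Upstream of the receptors, the ligand genes INS, IGF1 and IGF2 and the receptor relative INSRR were listed at 0 in both libraries. IGF2R, a clearance receptor for IGF2, was at 72.6 and 89.6 FPKM. Of 7 IGF binding protein genes, whose products hold IGFs in the medium, 5 were compared and 0 passed the 2-fold rule in either direction, with a median of -0.18. IGFBP6 was at 112 FPKM (vector) and 58.4 FPKM (YWHAB), a ratio of 0.521 (counting interval 0.473 to 0.573). IGFBP3 was at 42.3 and 23.3 FPKM (ratio 0.551). IGFBP4 was at 422 and 611 FPKM (ratio 1.45), and IGFBP7 at 25.3 and 22.2 FPKM (ratio 0.875). The binding proteins thus lay on both sides of equal levels.

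Among the other receptor adaptors, 12 of 14 were compared, with 0 past the rule and a median of -0.06. That sign turned when members under 5 FPKM were left out and with no filter (0.02 in both). IRS4 was listed at 0 in both libraries. DOK4, an IRS-like adaptor, was at 16.7 and 11.5 FPKM (ratio 0.687), and GRB10, which binds and restrains the insulin receptor, at 42.7 and 33.6 FPKM (ratio 0.788). SHC1, which links receptors to the RAS pathway, was at 155 and 127 FPKM (ratio 0.819), and SH2B2 at 3.60 and 2.56 FPKM, where the interval included equal levels. Of the 12 counting intervals, 4 lay below equal levels (DOK4, GRB10, SHC1 and GAB2) and 1 above (SOS1). The shares over all genes compared were 21.8% below and 27.8% above. GAB2 and SOS1 were chosen with their values in view. The differences of the 12 adaptors were above 0 for 6 and below 0 for 6, so they had no common direction.

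Of 11 other PI3-kinase subunit genes 6 were compared, with 0 past the rule and a median of 0.25, which was 0.0032 when every subunit gene above 0 was included. PIK3CD, the p110 delta subunit, was at 12.1 and 17.5 FPKM (ratio 1.45, counting interval 1.29 to 1.63). PIK3R4 was at 24.9 and 32.1 FPKM and PIK3C3 at 15.64 and 19.995, and the proteins of this pair form the class III kinase complex. PIK3C2B was at 2.32 and 2.72 FPKM, with an interval that included equal levels.

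Genes that restrain the pathway lay on both sides, and 2 of 13 compared passed the rule in opposite directions. That is 1 higher and 1 lower, against 0.686% and 1.97% of all genes compared. SOCS3, a feedback inhibitor of cytokine and insulin receptor signalling, was at 14.5 and 33.8 FPKM, a ratio of 2.34 (counting interval 2.03 to 2.70). PIK3IP1, which inhibits PI3-kinase at the membrane, was at 5.95 and 1.72 FPKM (ratio 0.289, counting interval 0.204 to 0.402). TRIB3, a pseudokinase that binds AKT, was at 55.8 and 35.5 FPKM (ratio 0.636), and ENPP1, which hinders the insulin receptor, at 9.76 and 14.8 FPKM (ratio 1.51). The median was 0.04, and -0.0065 after length and GC correction.

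Among 9 other AKT-family and upstream kinases, 1 was 2-fold higher and 0 were 2-fold lower, against 0.686% and 1.97% of all genes compared. Their median was 0.21. The higher gene was SGK1, an AKT relative that also phosphorylates FOXO3, at 10.8 and 29.7 FPKM (ratio 2.75). Its relative SGK3 was at 11.6 and 6.89 FPKM (ratio 0.596, counting interval 0.480 to 0.738). MLST8, a subunit of both mTOR complexes, was at 34.8 and 45.2 FPKM (ratio 1.30). In the TSC and mTORC1 branch 10 of 11 genes were compared, 0 passed the rule, and the median was 0.17. RPTOR, the defining subunit of mTORC1, was at 48.1 and 64.6 FPKM, TSC2, its brake, at 30.03 and 39.2, and EIF4EBP2, a translation repressor, at 6.30 and 7.79. TBC1D7, the small partner of the TSC proteins, was at 14.8 and 8.34 FPKM (ratio 0.562).

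Other AKT substrates showed no common direction: of 11 compared 0 passed the rule, 5 were above 0 and 6 below, and the median was -0.02 (0.02 with equal totals). CDKN1A, which encodes the cell cycle inhibitor p21, was at 257 and 166 FPKM (ratio 0.646), and PFKFB2, a regulator of glycolysis, at 10.7 and 6.76 FPKM (ratio 0.632). TBC1D4, which controls glucose transporter traffic and binds 14-3-3 proteins once phosphorylated, was at 9.53 and 13.5 FPKM (ratio 1.42). MDM2, the p53 ligase, was at 30.6 and 38.3 FPKM (ratio 1.25).

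Around the FOXO factors, the coactivator genes CREBBP (28.8 and 44.8 FPKM, ratio 1.55) and EP300 (46.5 and 69.9 FPKM, ratio 1.503) were higher in the YWHAB library beyond counting error. So were USP7, a FOXO deubiquitinase, at 74.96 and 106 FPKM, and FOXM1, a proliferation factor, at 44.4 and 61.4 FPKM. None of the 10 other FOXO and FOXO regulator genes compared passed the 2-fold rule, and the median was 0.36. Counting intervals lay above equal levels for 6 of the 10 and below for 1, against 27.8% and 21.8% of all genes compared. The 1 below was SIRT1, chosen with its values in view, at 17.3 and 14.5 FPKM (ratio 0.833, 0.738 to 0.941). FOXO4 was at 18.8 and 19.0 FPKM, a ratio of 1.01 (0.872 to 1.18), and was chosen with its values in view.

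Genes known as FOXO targets lay mostly lower in the YWHAB library. Of 29 compared, 5 were 2-fold lower and 0 higher, against 1.97% and 0.686% of all genes compared, and the median was -0.20 against 0.03. The counting interval lay below equal levels for 16 of the 29 and above for 2, INSR and KLF2, against 21.8% and 27.8% of all genes compared. Of the 29 differences 26 were negative, against 46.8% over all genes compared. TXNIP, which limits glucose uptake and binds thioredoxin, was at 3245 FPKM (vector) and 1136 FPKM (YWHAB), a ratio of 0.350 (counting interval 0.345 to 0.356). PDK4, a kinase that shuts off pyruvate dehydrogenase, was at 11.3 and 4.68 FPKM (ratio 0.414). GADD45A, a growth arrest gene, was at 57.4 and 26.7 FPKM (ratio 0.466), and SOD2, the mitochondrial superoxide dismutase, at 201 and 97.04 FPKM (ratio 0.483). PIK3IP1, given above among the brakes, was the other 1. Of SOD2's exon bases 1.81% overlap WTAP on the opposite strand, which was at 22.2 and 22.4 FPKM. Further lower genes, chosen with their values in view, were GABARAPL1, an autophagy gene, at 132 and 67.4 FPKM (ratio 0.512), CITED2, a transcriptional coregulator, at 83.3 and 52.6 FPKM (ratio 0.632), and the ubiquitin ligase gene FBXO32 at 34.1 and 21.9 FPKM (ratio 0.640). Another ligase gene, TRIM63, had 18 fragments (vector) and 0 (YWHAB) and was too low to be compared. With INSR and IRS2 left out, 5 of 27 were 2-fold lower and the median was -0.25. The list was drawn up with earlier results of these data known, so its count is a description and not independent evidence of a direction. KLF2, a Kruppel-like factor likewise chosen, was at 2.13 and 5.05 FPKM (ratio 2.37, counting interval 1.58 to 3.63), against the direction of most of the list. The liver genes G6PC and PCK1 were listed at 0 in both libraries.

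**Figure D5:**
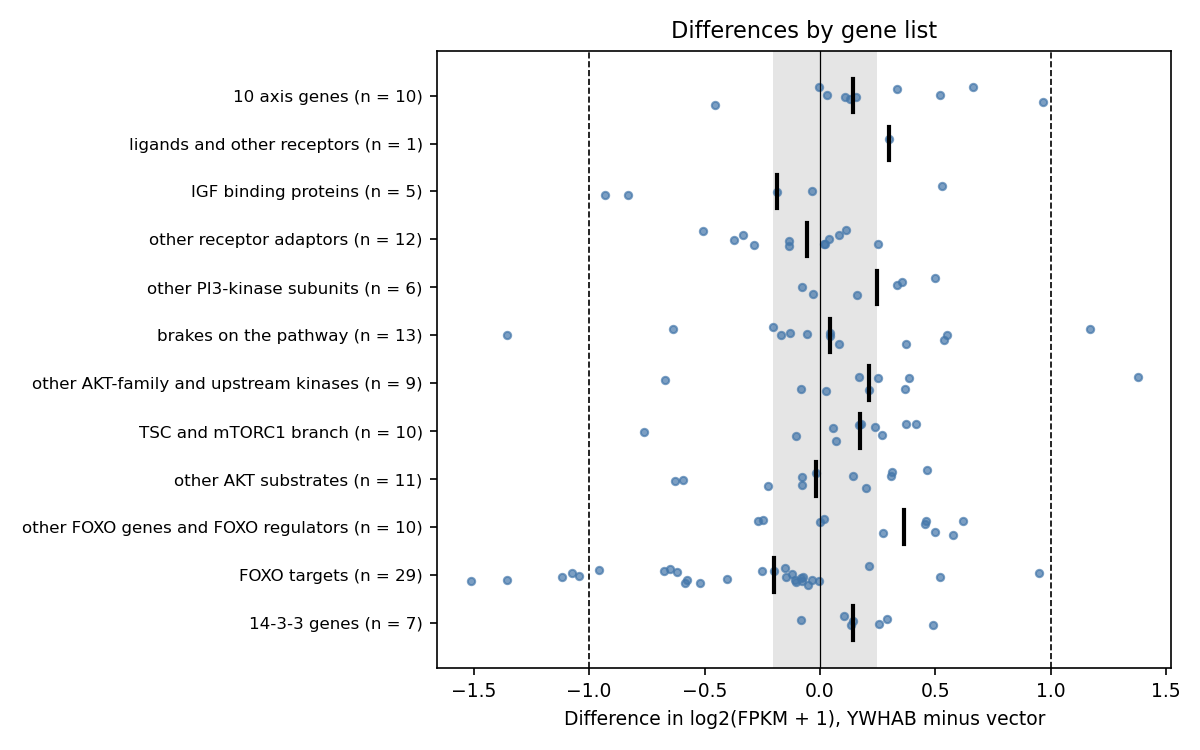
Difference in log2(FPKM + 1), YWHAB minus vector, of each gene compared in each list (points, spread vertically for clarity), with the list's median as a black bar. The grey band is the interquartile range of all 13420 genes compared and dashed lines mark the 2-fold rule. The FOXO targets have a median of -0.20 with 5 genes beyond the lower line, and the 10 axis genes a median of 0.14 with none beyond either line.

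Among 7 genes for 14-3-3 proteins, YWHAB had the highest ratio at 1.41, followed by SFN at 1.23 (71.5 and 87.8 FPKM) and YWHAH at 1.198 (69.2 and 82.9 FPKM). YWHAQ was at 242 and 268 FPKM (ratio 1.11). The highest levels were those of YWHAE (784 and 861 FPKM) and YWHAZ (762 and 819 FPKM). YWHAG was at 54.5 and 51.4 FPKM (ratio 0.943, counting interval 0.892 to 0.996). These 3 genes were chosen with their values in view. Intervals lay above equal levels for 6 of the 7 genes and below for 1, against 27.8% and 21.8% of all genes compared. In level and ratio over the 2 libraries, the protein-coding gene nearest to IRS1 was TFAP2C, a transcription factor, at 15.4 and 30.2 FPKM, with a distance of 0.06 in log2 FPKM. SOCS3 (distance 0.18) and FUT11, a fucosyltransferase gene at 15.2 and 26.2 FPKM (distance 0.19), came next. With 2 libraries this likeness is only 1 level and 1 ratio.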

How the data were processed

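RNA from 2 MDA-MB-231 libraries was analysed, 1 per group, as named by the labels. The authors deposited FPKM values per Ensembl gene, per the labels. HISAT2 2.0.5 and hg38 are named in the submitters' processing notes. The read counter, annotation release, strand use and treatment of shared reads are unknown from the sources used here. Of 60774 identifiers 96.3% matched GENCODE 29, which gave symbols, coordinates (GRCh38, the assembly of hg38), lengths and overlaps. Where a symbol had several identifiers, the one with the higher mean was used.

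Whole fragments were worked out from the steps of low FPKM values, which gave the library totals. For 26769 of 26770 genes above 0, both values equalled whole fragments divided by 1 whole length (relative tolerance 1e-12). Lengths were known only up to a multiple for 19.2% of genes. The multiple nearest to the GENCODE mean was taken, or the smallest where the nearest was off by over 20%. Intervals of 95% are exact for independent fragments (Clopper-Pearson for ratios, Poisson for levels). They cover counting error only, because 1 library per group holds no spread between libraries. PCR copies are no independent molecules, so with such copies the intervals would be too narrow even for counting error. The recovery and intervals were tested on simulated data with rounded GENCODE mean lengths and Poisson counts. That setting cannot test the choice of multiple, because the same mean lengths guide it. Nor can it test how the intervals fare under error other than counting. No replicate exists, so no test was run. Genes averaging 1 FPKM or more were compared on log2(FPKM + 1), which understates differences of low genes.

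The members and the 16 lists were chosen with earlier results of these data known. The rule for named genes took all members, YWHAB, up to 4 genes with the largest differences and all past the 2-fold rule in each of 11 pathway lists, and the 3 genes nearest to IRS1. Not every gene under this rule is reported here. The 6 alternatives tried were a pseudocount of 0.1, a filter at 5 FPKM or none, equal totals, a median ratio of 0 over genes with 10 FPKM or more, and correction for length and GC content (lowess, fraction 0.3, statsmodels 0.14.6). Division by the longest transcript was added after seeing the data. Planned protein motif searches were not run and protein sequences are not used here. Python 3.11.15, numpy 2.4.6, pandas 2.3.3 and scipy 1.17.1 were used.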

Additional observations from a re-analysis of the deposited data

How the results depend on the processing

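No paired analysis was possible because each group has 1 library, and for the same reason no library could be left out. With a pseudocount of 0.1 the number of axis genes 2-fold higher went from 0 to 1 (IRS1), as it did with equal totals, that of FOXO targets from 0 to 1 (KLF2), and over all genes 222 were higher and 471 lower, against 92 and 265. With no filter 155 genes were higher. With a mean of at least 5 FPKM 40 were higher and 112 lower, the median of the IGF binding proteins was -0.51, and 0 brakes were lower because PIK3IP1 was no longer compared. After length and GC correction the 1 gene compared among ligands and other receptors, IGF2R, was at 0.15. For the 10 genes, IRS1 (0.81), IRS2 (-0.21), AKT1 (0.20) and FOXO3 (-0.60) left their counting interval under that correction. Counts not named here moved by less than 1.5 times, and YWHAB stayed within its counting interval. List medians not named stayed between the medians of their members' interval bounds, which is a wide allowance: the PI3-kinase subunits went from 0.25 to 0.0032 with no filter, where low genes join the list. For FOXO1, at 345 fragments over both libraries, the smallest number possible for it, the counting interval ran from 0.824 to 1.27. Underlying ratios within that range could not be told apart for this gene.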
